A study of Mus musculus with 2 samples.

Results

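The glutathione, thioredoxin and related antioxidant enzymes were examined in mouse acute myeloid leukaemia cells that the labels describe as leukaemia-initiating. The set was chosen by gene symbol. It took the glutathione S-transferases whose symbols begin with Gst, a class letter and a number, and so not the microsomal Mgst genes. It also took the glutathione peroxidases, peroxiredoxins, thioredoxin reductases and glutaredoxins, by symbols that begin with Gpx, Prdx, Txnrd and Glrx. A further 14 single genes, such as Cat, Sod1, Gclc, Nfe2l2 and Keap1, were named one by one. This gave 57 of the table's 46095 entries. Of the 57, 48 had at least 1 count in either library and 37 had a mean of at least 5 CPM. The values come from RNA sequencing of 1 library labelled P2X1-KO (genotype P2x1-KO) and 1 library labelled WT (genotype wild type). Both were made from C57BL/6 mice with a labelled age of 8 weeks, and both from bone marrow cells sorted as Mac1+ and c-Kit+. The protocol text also names a scrambled control and a knockdown for the same samples. The sources used here do not say how the cells labelled P2X1-KO were made, how the leukaemia was made or whether animals were pooled. With 1 library per group no difference has a replicate check, and no test was made.

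Cells contain hydrogen peroxide and lipid peroxides as by-products of respiration and of oxidases. Superoxide dismutases turn superoxide into hydrogen peroxide. Catalase splits it into water and oxygen. Glutathione peroxidases and peroxiredoxins reduce it with electrons from glutathione or from thioredoxin, which glutathione reductase and thioredoxin reductases recharge with NADPH. The transcription factor NRF2, encoded by Nfe2l2 and held in check by KEAP1, drives many of these genes. In myeloid cells the system works beside an NADPH oxidase that makes superoxide for killing microbes.

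The library labelled P2X1-KO held 9447894 counts and the library labelled WT 14658620. P2rx1, which encodes the P2X1 receptor, had 45 counts in the library labelled P2X1-KO and 27 in the library labelled WT, or 5.07 CPM in P2X1-KO and 1.73 CPM in WT, 2.93-fold higher (1.78 to 4.90). The transcript named in the genotype was thus not lower in the library labelled as its knockout. P2rx1 averaged 3.40 CPM, below the minimum of 5 CPM used for calls. Exchanged labels and a gene alteration or knockdown that leaves counted transcript cannot be told apart here, and other causes were not tested. Exchanged labels would turn every direction given. P2X1-KO and WT name the 2 libraries by their labels, and every direction is a difference between them. Kit was at 19.9 CPM in the library labelled P2X1-KO and 13.3 CPM in the library labelled WT, and Itgam, which encodes a chain of Mac1, was at 504 CPM in P2X1-KO and 307 CPM in WT. CPM is a count scaled to a common library size, here with the trimmed-mean method (TMM) of edgeR. Scaling by total counts instead shifts every log2 difference by -0.18, and under upper-quartile scaling the shift is 0.08. Each fold below has an exact 95% binomial interval that covers counting error only.

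Together the 57 genes took 0.855% of all P2X1-KO counts (exact 95% interval 0.849 to 0.861) and 0.589% of all WT counts (0.585 to 0.592). Their summed level was 9094 CPM in the P2X1-KO library and 5533 CPM in the WT library, a ratio of 1.64. Gpx1, Gpx3 and Prdx5 held most of that gap. Without these 3 genes, picked after their values were seen, the sums were 4819 CPM in P2X1-KO and 4153 CPM in WT, a ratio of 1.16.

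Of the 37 enzymes that averaged 5 CPM or more, 7 were higher in P2X1-KO by 2-fold or more (18.9%) and 2 were lower by as much (5.41%). Over the whole table, 12.1% of 10483 genes at this level were higher by that margin and 10.6% lower. Counting both directions, 24.3% of the enzymes and 22.7% of all genes were at least 2-fold apart, so the share that differed was near the background. Those higher were Gpx1, Gpx3, Prdx5, Srxn1, Glrx, Gstk1 and Gstt3, and those lower were Txnrd3 and Gstm2. The other 28 lay within 2-fold. At a 1.5-fold margin, 12 enzymes were higher (32.4%) and 7 lower (18.9%), beside 21.9% and 24.2% of all genes. The median log2 difference was 0.15 for the enzymes and -0.08 for all genes at this level whose exon length was known.

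**Figure D1:**
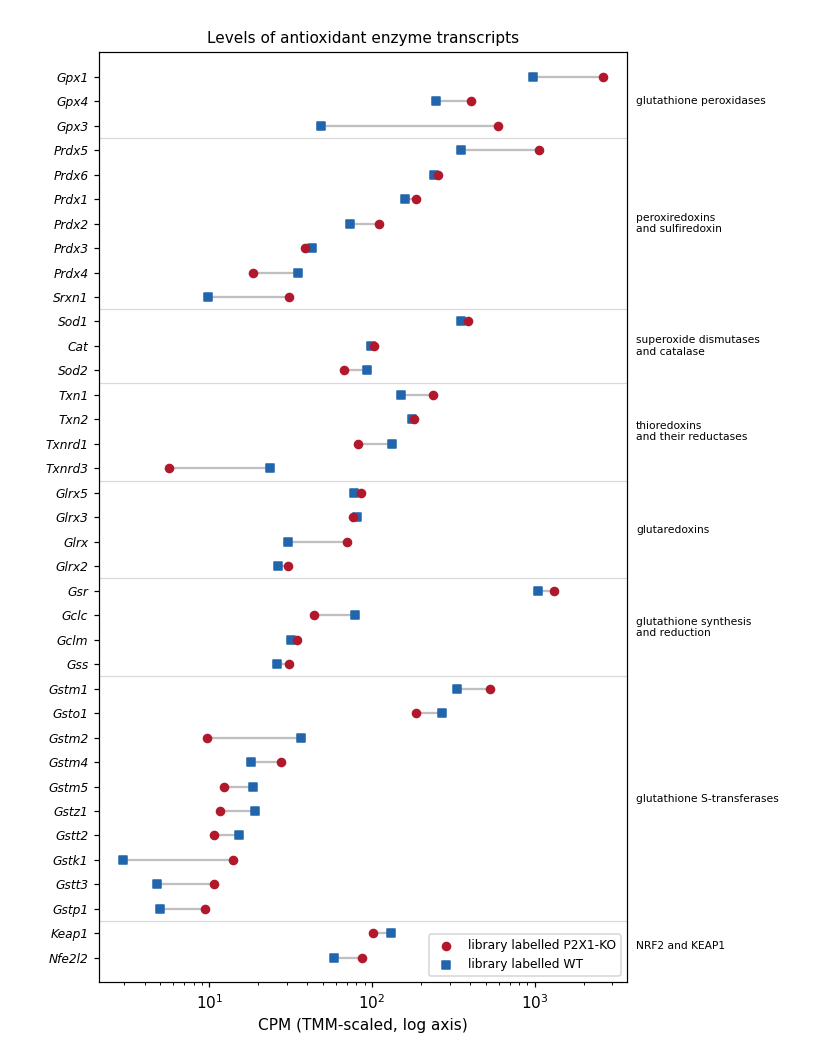
Level in CPM (TMM-scaled, log axis) of the 37 antioxidant enzyme genes that averaged 5 CPM or more, in the library labelled P2X1-KO (red circles) and the library labelled WT (blue squares), 1 library each, grouped by role. Gpx1 was at the highest CPM of them in P2X1-KO and Gsr in WT, and the Gpx3 points lie furthest apart, at 593 CPM in P2X1-KO and 48.9 CPM in WT.

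Of the 3 glutathione peroxidase genes that averaged 5 CPM or more, 2 were at least 2-fold higher in P2X1-KO and the other was higher by less. GPX1 is the cytosolic and mitochondrial peroxidase, GPX3 the secreted one of plasma, and GPX4 the enzyme that reduces lipid peroxides in membranes and so guards against ferroptosis. All are selenoproteins. Gpx1 (chromosome 9, 108338903 to 108340343, plus strand, mm10) had 23315 counts in the library labelled P2X1-KO and 15237 in the library labelled WT. This is 2625 CPM in P2X1-KO against 977 CPM in WT, 2.69-fold higher (2.63 to 2.74).

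Gpx3 differed most of all 37 genes. Its position is chromosome 11, 54902453 to 54910377, plus strand. It had 5270 counts in the library labelled P2X1-KO and 762 in the library labelled WT, or 593 CPM in P2X1-KO and 48.9 CPM in WT, 12.1-fold higher (11.2 to 13.1). Gpx4, at 408 CPM in P2X1-KO and 245 CPM in WT, was 1.66-fold higher (1.59 to 1.74). The order of these genes by level per length differed between the libraries. Per kilobase of exon, Gpx3 ranked 5 among the 57 genes in P2X1-KO, at 327 CPM per kb, and 15 in WT, at 27.0 CPM per kb. Gpx1 ranked 1 in both libraries, at 1822 CPM per kb in P2X1-KO and 678 CPM per kb in WT.

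Within the family, shares do not depend on how the libraries are scaled. Gpx3 made up 16.4% of Gpx counts in P2X1-KO (16.0 to 16.8) and 3.84% in WT (3.58 to 4.12). Gpx4 made up 11.2% of Gpx counts in P2X1-KO and 19.3% in WT, although its CPM was the higher in P2X1-KO. Gpx8 had 3 counts in P2X1-KO and 0 in WT, which is no more than the floor of 3 counts used for absence. Gpx2, Gpx5, Gpx6 and Gpx7, enzymes of gut, epididymis, olfactory tissue and the endoplasmic reticulum, had 0 counts in both libraries.

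The 250 bases before the RefSeq start of Gpx3 (GRCm38.p6, chr11:54902604-54902853, plus strand) are shown because this gene has the widest gap of the set. They hold neither of the 2 motifs searched, TGACNNNGC and TGACTCA, which are described further on, and are in lower case throughout.
Gpx3: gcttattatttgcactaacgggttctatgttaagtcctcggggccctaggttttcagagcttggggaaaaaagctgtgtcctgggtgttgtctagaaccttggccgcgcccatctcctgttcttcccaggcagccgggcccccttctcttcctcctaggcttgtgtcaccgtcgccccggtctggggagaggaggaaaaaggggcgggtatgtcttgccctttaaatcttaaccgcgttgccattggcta

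Most of the genes that mark neutrophils and monocytes stood higher in the same library, and these markers are given here beside the peroxidases. Of 10 neutrophil markers 9 were at least 2-fold higher, where 15.5% of all genes averaging 1 CPM or more were. The 10 summed to 12758 CPM in P2X1-KO and 3218 CPM in WT. Ly6g went the other way, at 4.05 CPM in P2X1-KO and 6.99 CPM in WT. Of 9 monocyte and macrophage markers averaging 1 CPM or more, 8 were at least 2-fold higher. The 10 listed summed to 1543 CPM in P2X1-KO and 732 CPM in WT. Ly6c2 was slightly lower, at 497 CPM in P2X1-KO and 546 CPM in WT, and Mrc1 had 0 counts in P2X1-KO and 3 in WT. All 3 eosinophil markers at that level were at least 2-fold higher, and that list summed to 212 CPM in P2X1-KO and 7.5 CPM in WT, with Ear1, Il5ra and Ccr3 at 0 in both libraries and Ear6 at 0 counts in P2X1-KO and 19 in WT. The 8 stromal markers summed to 250 CPM in P2X1-KO and 95 CPM in WT, but did not move as one. Col1a1 was at 149 CPM in P2X1-KO and 0.962 CPM in WT, and Col1a2 and Col3a1 had 213 and 264 counts in P2X1-KO and 0 in WT. Pdgfrb was lower, at 47.1 CPM in P2X1-KO and 93.1 CPM in WT, Cxcl12 had 0 counts in P2X1-KO and 14 in WT, and Dcn, Lum and Pdgfra were at 0 in both libraries. Mast cell and basophil markers summed to 109 CPM in P2X1-KO and 48.3 CPM in WT, although Mcpt8 was lower (23.0 CPM in P2X1-KO, 34.0 CPM in WT). Endothelial, B and plasma cell, and megakaryocyte markers summed to 43.0, 51.4 and 22.1 CPM in P2X1-KO. Their sums in WT were 13.7, 17.1 and 4.87 CPM. T and NK cell markers summed to 13.6 CPM in P2X1-KO and 15.5 CPM in WT. At most 3 genes in each of these further lists averaged 1 CPM or more. In bulk samples more cells of a type and more RNA per cell cannot be told apart, and the part of these cells in the enzyme values was not tested. Red cells, which are rich in catalase, GPX1 and PRDX2, left few counts. Alas2, Slc4a1, Epor and Epb42 had 0 counts in both libraries, and the 12 erythroid genes in the table summed to 2.25 CPM in P2X1-KO and 0.962 CPM in WT.

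Among the peroxiredoxins, thiol peroxidases that thioredoxin recharges, 1 member stood well apart from its family. Prdx5, the peroxiredoxin of mitochondria, peroxisomes and cytosol, had 9387 counts in the library labelled P2X1-KO and 5522 in the library labelled WT. This is 1057 CPM in P2X1-KO against 354 CPM in WT, 2.98-fold higher (2.89 to 3.09). Prdx5 (chromosome 19, 6906697 to 6910106, minus strand) overlaps Trmt112 on the opposite strand, and the strand setting of the counting is not known. Its share of Prdx counts was 63.5% in P2X1-KO (62.7 to 64.2) and 39.1% in WT (38.3 to 39.9).

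The remaining peroxiredoxins lay within 2-fold. Prdx2, a cytosolic enzyme, was at 110 CPM in P2X1-KO and 73.6 CPM in WT, 1.5-fold higher (1.37 to 1.63), with exons overlapping Junb and Rnaseh2a on the opposite strand. Prdx1, its close relative, was at 186 CPM in P2X1-KO and 159 CPM in WT, 1.17-fold higher (1.10 to 1.25). Prdx6, which uses glutathione and a single catalytic cysteine, was at 255 CPM in P2X1-KO and 240 CPM in WT. The mitochondrial Prdx3, at 38.8 CPM in P2X1-KO and 42.9 CPM in WT, had an interval that included no change (0.793 to 1.03 as a ratio). Prdx4, the peroxiredoxin of the endoplasmic reticulum, was the one clearly lower, at 18.6 CPM in P2X1-KO and 35.0 CPM in WT, 1.89-fold (1.58 to 2.26).

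Srxn1 encodes sulfiredoxin, which repairs over-oxidised peroxiredoxins and is a classic NRF2 target. It had 275 counts in the library labelled P2X1-KO and 154 in the library labelled WT, or 31.0 CPM in P2X1-KO and 9.88 CPM in WT, 3.13-fold higher (2.56 to 3.84). The gene spans 152105516 to 152111376 of chromosome 2, plus strand. Its promoter is shown because it held the motif TGACTCA at 2 places, read there on the opposite strand as TGAGTCA and set in capitals (RefSeq, GRCm38.p6, chr2:152105274-152105523, plus strand).
Srxn1: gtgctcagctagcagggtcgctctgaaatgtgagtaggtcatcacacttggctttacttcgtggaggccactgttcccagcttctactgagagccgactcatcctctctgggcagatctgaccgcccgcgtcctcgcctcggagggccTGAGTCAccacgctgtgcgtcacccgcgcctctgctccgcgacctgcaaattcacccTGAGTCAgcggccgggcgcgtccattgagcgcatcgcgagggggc

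Among the superoxide dismutases and catalase, Sod1, Sod2 and Cat all lay within 2-fold. Sod1, the cytosolic copper and zinc dismutase, was at 388 CPM in the library labelled P2X1-KO and 350 CPM in the library labelled WT, 1.11-fold higher (1.06 to 1.16). Cat, encoding catalase, was at 103 CPM in P2X1-KO and 98.5 CPM in WT, with a ratio of 1.04 (0.959 to 1.13). With total counts as the scale, Sod1 and Cat both turned slightly lower in P2X1-KO. Sod2, the mitochondrial manganese dismutase, was at 67.0 CPM in P2X1-KO and 93.3 CPM in WT, 1.39-fold lower (1.26 to 1.53). The sign of Sod2 changed after the length and GC correction, to a log2 difference of 0.08. The extracellular Sod3 had 0 counts in P2X1-KO and 1 in WT.

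The thioredoxin system had Txn1 higher, Txn2 nearly level and its 2 measured reductases lower. Txn1, the cytosolic thioredoxin, was at 237 CPM in the library labelled P2X1-KO and 151 CPM in the library labelled WT, 1.57-fold higher (1.48 to 1.67). Txn2, its mitochondrial counterpart, was at 180 CPM in P2X1-KO and 177 CPM in WT. Txnrd1, the cytosolic selenoprotein reductase that recharges thioredoxin, was at 81.6 CPM in P2X1-KO and 132 CPM in WT, 1.62-fold lower (1.48 to 1.76). Txnrd3, which joins a glutaredoxin domain to a thioredoxin reductase, had 50 counts in P2X1-KO and 366 in WT. This is 5.63 CPM in P2X1-KO against 23.5 CPM in WT, 4.17-fold lower (3.10 to 5.72), the widest gap in that direction among the 37. Txnrd2, the mitochondrial reductase, had 12 counts in P2X1-KO and 26 in WT.

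Among reductase counts, Txnrd3 took 6.35% in P2X1-KO (4.75 to 8.29) and 15.0% in WT (13.6 to 16.4). Per kilobase it supplied 14.4% of the family's level in P2X1-KO and 30.4% in WT. The gene spans 89643988 to 89675529 of chromosome 6, plus strand. The 250 bases before its RefSeq start (GRCm38.p6, chr6:89643738-89643987) are given as the counterpart from the lower side. Neither motif was found in them.
Txnrd3: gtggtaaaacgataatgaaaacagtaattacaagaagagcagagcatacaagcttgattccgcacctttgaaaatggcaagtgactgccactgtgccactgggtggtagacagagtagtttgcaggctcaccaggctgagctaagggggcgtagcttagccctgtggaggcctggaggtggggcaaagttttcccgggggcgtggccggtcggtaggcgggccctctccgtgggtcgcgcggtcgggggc

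The 4 glutaredoxins, small oxidoreductases that use glutathione, included 1 gene past 2-fold. Glrx, the cytosolic glutaredoxin, is on chromosome 13 from 75839868 to 75850154. It had 619 counts in the library labelled P2X1-KO and 475 in the library labelled WT, or 69.7 CPM in P2X1-KO and 30.5 CPM in WT, 2.29-fold higher (2.03 to 2.58). Glrx5, of mitochondrial iron-sulfur cluster assembly, was at 85.3 CPM in P2X1-KO and 77.9 CPM in WT. Glrx3, a cytosolic carrier of such clusters, was at 76.4 CPM in P2X1-KO and 80.5 CPM in WT. Glrx2, mostly mitochondrial, was at 30.6 CPM in P2X1-KO and 26.6 CPM in WT. The intervals of Glrx2, Glrx3 and Glrx5 all included no change. The share of Glrx among glutaredoxin counts was 26.6% in P2X1-KO (24.8 to 28.4) and 14.1% in WT (13.0 to 15.4).

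**Figure D2:**
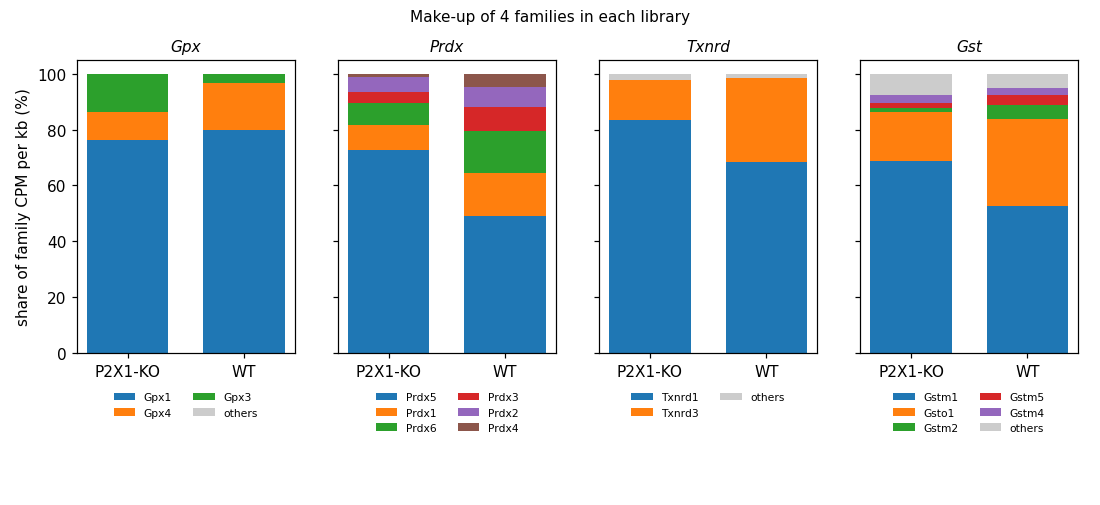
Share (%) of each family's summed CPM per kb of exon that each gene supplies, for glutathione peroxidases, peroxiredoxins, thioredoxin reductases and glutathione S-transferases, in the library labelled P2X1-KO (left bar) and the library labelled WT (right bar). Genes under 3% in both bars are joined as others. Prdx5 supplied 72.7% of its family in P2X1-KO and 49.0% in WT, and Gpx3 13.7% of its family in P2X1-KO and 3.18% in WT.

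Glutathione is made by glutamate-cysteine ligase, whose catalytic and modifier subunits are encoded by Gclc and Gclm, and by glutathione synthetase, encoded by Gss. Gclc, the rate-limiting subunit, had 393 counts in the library labelled P2X1-KO and 1219 in the library labelled WT. At 44.2 CPM in P2X1-KO against 78.2 CPM in WT it was 1.77-fold lower (1.58 to 1.98). Gclm was at 34.8 CPM in P2X1-KO and 31.8 CPM in WT and so did not share that gap. The ratio of Gclc to Gclm counts, which no scaling affects, was 1.27 in P2X1-KO and 2.46 in WT. Gss, at 30.7 CPM in P2X1-KO and 26.2 CPM in WT, overlaps Acss2 on the opposite strand. Gsr, glutathione reductase, was among the most abundant of the set. It had 11600 counts in P2X1-KO and 16299 in WT, or 1306 CPM in P2X1-KO and 1045 CPM in WT, 1.25-fold higher (1.22 to 1.28).

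The glutathione S-transferases join glutathione to electrophiles, and here 2 genes carried most of the signal. Gstm1, of the mu class, was at 534 CPM in the library labelled P2X1-KO and 333 CPM in the library labelled WT, 1.60-fold higher (1.54 to 1.67). Gsto1, of the omega class, was at 187 CPM in P2X1-KO and 269 CPM in WT, 1.44-fold lower (1.36 to 1.52). Together they shifted the make-up of the family. Gstm1 took 63.4% of transferase counts in P2X1-KO (62.3 to 64.5) and 45.5% in WT (44.6 to 46.4). Gsto1 took 22.2% in P2X1-KO (21.3 to 23.2) and 36.7% in WT (35.9 to 37.6).

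Other transferases differed by more, at lower levels. Gstk1, the kappa class enzyme of mitochondria and peroxisomes, had 125 counts in P2X1-KO and 46 in WT, or 14.1 CPM in P2X1-KO and 2.95 CPM in WT, 4.77-fold higher (3.38 to 6.84). Gstt3, of the theta class, had 95 counts in P2X1-KO and 74 in WT, a 2.25-fold difference (1.65 to 3.10). The interval of Gstt3 reached below 2-fold, and with total counts as the scale it was within 2-fold. Gstm2 had 86 counts in P2X1-KO and 569 in WT, or 9.68 CPM in P2X1-KO and 36.5 CPM in WT, 3.77-fold lower (3.0 to 4.79). Of the other genes of the mu cluster on chromosome 3 that averaged 5 CPM or more, Gstm1 and Gstm4 were higher in P2X1-KO. Gstm5 was lower, by less than Gstm2. Gstm4 was at 27.6 CPM in P2X1-KO and 18.2 CPM in WT, and Gstm5 at 12.3 CPM in P2X1-KO and 18.6 CPM in WT. Genes of the cluster are close copies, so reads may have been shared or dropped among them, and Gstm5 overlaps 4933431E20Rik on the opposite strand.

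Of the rest, Gstz1, which also isomerises maleylacetoacetate, was at 11.7 CPM in P2X1-KO and 19.0 CPM in WT, and overlaps Pomt2. Gstt2 was at 10.7 CPM in P2X1-KO and 15.3 CPM in WT. Gstp1 had 84 counts in P2X1-KO and 78 in WT, 1.89-fold higher (1.37 to 2.61), while its near-identical neighbour Gstp2 was at 0 in both. Reads may have been shared or dropped between these copies too. Below a mean of 5 CPM, the pseudogene Gstm2-ps1 had 61 counts in P2X1-KO and 41 in WT, and Gstm3 43 in P2X1-KO and 30 in WT. Gstm7 had 30 counts in P2X1-KO and 52 in WT. Gsta3, of the alpha class, had 0 counts in P2X1-KO and 18 in WT, at least 3.42-fold lower with a floor of 3 counts per library in place of 0. The exact 95% interval of that ratio, which also covers the counting error of WT, begins at 2.50-fold lower. Gstm6, Gsto2 and Gsta4 had at most 5 counts in a library, and Gsta1, Gsta2, Gstt1, Gstt4 and Gstp2 had 0 in both.

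The promoters of Gstk1 and Gstm2 are shown as the transferases furthest apart in each direction. That of Gstk1 (RefSeq, GRCm38.p6, chr6:42245685-42245934, plus strand) and that of Gstm2 (chr3:107986421-107986670, minus strand) held neither motif.
Gstk1: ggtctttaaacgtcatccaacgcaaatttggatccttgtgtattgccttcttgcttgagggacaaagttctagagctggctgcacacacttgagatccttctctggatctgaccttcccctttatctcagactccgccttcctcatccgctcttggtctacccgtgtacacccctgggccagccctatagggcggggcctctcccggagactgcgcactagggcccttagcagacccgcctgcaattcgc
Gstm2: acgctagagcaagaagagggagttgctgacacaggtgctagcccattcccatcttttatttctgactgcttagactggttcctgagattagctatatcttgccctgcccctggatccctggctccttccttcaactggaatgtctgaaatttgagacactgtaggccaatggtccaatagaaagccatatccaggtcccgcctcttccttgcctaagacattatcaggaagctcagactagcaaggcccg

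Nfe2l2 and Keap1 encode NRF2 and the adaptor that sends it to degradation. Nfe2l2 had 774 counts in the library labelled P2X1-KO and 910 in the library labelled WT, or 87.1 CPM in P2X1-KO and 58.4 CPM in WT, 1.49-fold higher (1.35 to 1.64). Keap1 was at 102 CPM in P2X1-KO and 131 CPM in WT, 1.28-fold lower (1.19 to 1.39). Nqo1, the quinone reductase often used as a readout of NRF2, was scarce and had 5 counts in P2X1-KO and 42 in WT. That is a 4.79-fold lower level, with a wide interval of 1.90 to 15.5, and its mean was below 5 CPM.

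**Figure D3:**
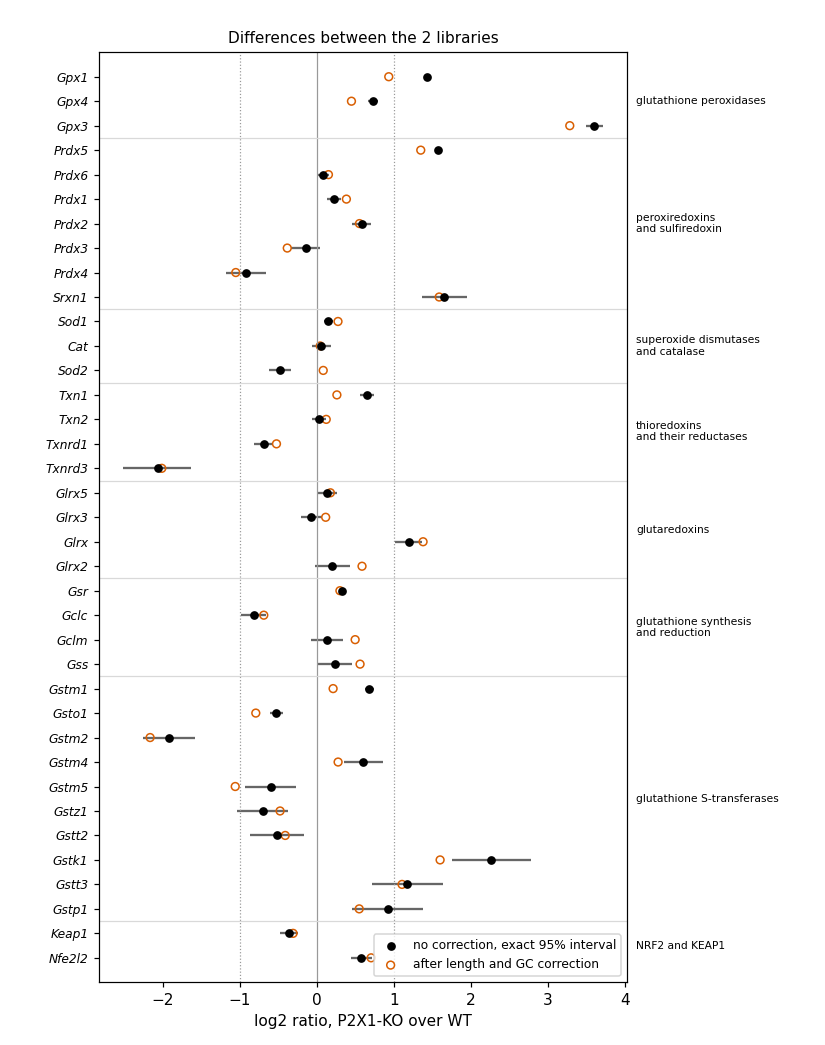
Log2 ratio of P2X1-KO over WT for the same 37 genes (black points, lines for the exact 95% interval of counting error, no pseudocount) and the log2(CPM + 0.5) difference after correction for exon length and GC content (open orange circles). Dotted lines mark 2-fold in each direction. Gpx3 lies furthest to the right and Txnrd3 furthest to the left, and Gpx1 moves inside the 2-fold line after the correction.

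Differences varied with exon length, the merged length of all annotated exons of a gene, which can exceed that of any single transcript. The levels per kilobase above rest on the same length. Genes that averaged 5 CPM or more and had a known exon length, 10005 in all, were put into 5 equal groups by length. The median log2 difference was 0.41 in the shortest group and -0.40 in the longest. Spearman's rho between exon length and difference was -0.31 across these genes, which share both libraries and are not independent. The enzymes had a median exon length of 3043 bp, against 4361 bp for all genes, and 14 of the 37 fell in the shortest group. After subtracting the medians within bins of length and then of GC content, the median of the 37 was 0.26, relative to 0 for all genes by construction. Gpx1 then dropped to a log2 difference of 0.93, Gpx4 to 0.45, Txn1 to 0.26 and Gstm1 to 0.21. Gpx3 stayed at 3.28, Srxn1 at 1.59, Gstk1 at 1.60 and Prdx5 at 1.35. On the lower side Txnrd3 stood at -2.01 and Gstm2 at -2.16, and Prdx4 and Gstm5 passed 2-fold at -1.05 and -1.06.

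**Figure D4:**
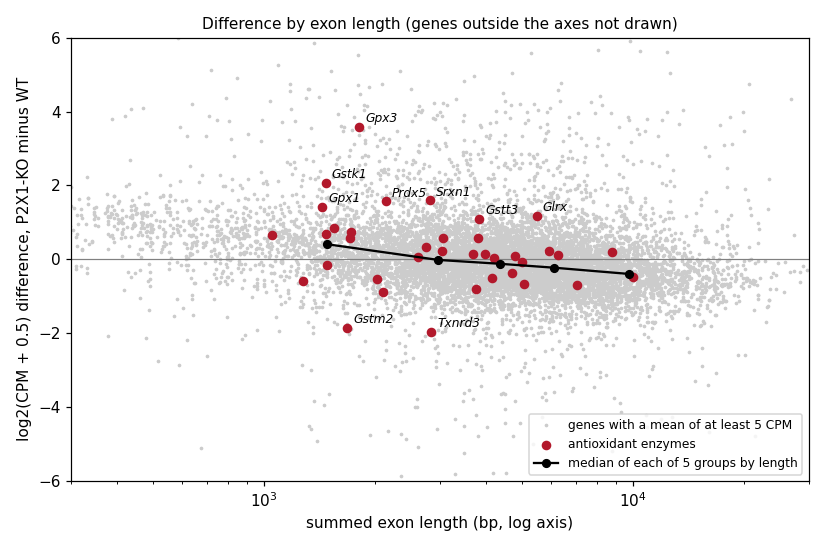
Difference in log2(CPM + 0.5), P2X1-KO minus WT, against summed exon length in bp (log axis) for all genes that averaged 5 CPM or more (grey) and the 37 antioxidant enzymes (red); the black line joins the medians of 5 equal groups of genes by length. The medians go down with length, and Gpx3, Gstm2 and Txnrd3 lie far from that line.

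The motif that NRF2 binds with small MAF proteins, the antioxidant response element, has the core TGACNNNGC, and TGACTCA is the related site of AP-1 factors. Both were searched on both strands in the 250 bases before each RefSeq start, with a gene counted once if any of its windows matched. Windows were found for 50 of the 57 genes. TGACNNNGC was present for 8 of the 50 (16.0%) and for 11.5% of 27025 genes in all. TGACTCA was present for 6 of the 50 (12%) and for 5.16% of all genes. The 6 include the neighbours Gstp1 and Gstp2, which have the same letters around the match and so are not separate cases. Only in Prdx1 did the 2 motifs overlap. Of the 9 enzymes at least 2-fold apart, 0 held TGACNNNGC and 2 held TGACTCA, namely Glrx and Srxn1. A match of letters is a description of these windows and not evidence of binding.

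Windows around matches are shown for comparison with the values above, with the motif in capitals and 10 bases on either side. The first 5 lines show TGACNNNGC, which in every line but that of Gstm5 lies on the opposite strand, and the last 2 show TGACTCA, on the gene's own strand in Glrx and on the opposite one in Gstp1. The windows are chr4:116685456-116685484 for Prdx1, chr3:122245413-122245441 for Gclm, chr10:82859104-82859132 for Txnrd1, chr16:90220696-90220724 for Sod1 and chr3:107895802-107895830 for Gstm5, all on the plus strand. Those of TGACTCA are chr13:75839777-75839803 for Glrx, on the plus strand, and chr19:4037970-4037996 for Gstp1, on the minus strand. Of the 33 enzymes with a window that averaged 5 CPM or more, 6 held TGACNNNGC (18.2%). Of these, Nfe2l2, Prdx1, Sod1 and Gclm were 1.49-fold, 1.17-fold, 1.11-fold and 1.09-fold higher in P2X1-KO. Txnrd1 and Gstm5 were 1.62-fold and 1.52-fold lower. The interval of Gclm included no change (0.946 to 1.26 as a ratio), and Sod1 and Gclm changed sign with total counts as the scale.
Prdx1: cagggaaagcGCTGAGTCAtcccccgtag
Gclm: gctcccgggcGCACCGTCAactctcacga
Txnrd1: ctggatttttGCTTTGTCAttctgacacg
Sod1: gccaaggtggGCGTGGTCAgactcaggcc
Gstm5: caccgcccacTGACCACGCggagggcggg
Glrx: taggaagtacTGACTCAtaccaaaatg
Gstp1: tccaacgtgtTGAGTCAgcatccgggg

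Genes that work beside the enzymes were taken from 7 lists. Of 102 genes, 78 averaged 5 CPM or more. Of the 78, 13 were higher by 2-fold or more in P2X1-KO and 7 lower by as much. Over the whole table, 12.1% of genes at this level were higher by that margin and 10.6% lower. These shares are also the background for the counts of the single lists below, each of which has few genes. The median log2 difference of the 78 was 0.14. With total counts as the scale, 8 were higher and 8 lower. The whole-table shares were made with TMM and are not a background for these 2 counts.

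Among other NRF2 targets, 4 of 15 measured genes were higher by at least 2-fold and 2 lower by as much. Hmox1, haem oxygenase 1, had 1994 counts in P2X1-KO and 233 in WT, or 224 CPM in P2X1-KO and 14.9 CPM in WT, 15.0-fold higher (13.1 to 17.3). Ftl1, ferritin light chain, was at 3313 CPM in P2X1-KO and 1153 CPM in WT. The aldo-keto reductase genes Akr1c13 and Akr1b10 were 2.60-fold (1.81 to 3.82) and 2.07-fold lower (1.78 to 2.42). After the length and GC correction Akr1b10 was within 2-fold, at a log2 difference of -0.98. Of 9 NRF2 partners and regulators, 2 were at least 2-fold higher and 0 lower. Nfe2, the NRF2 relative of blood cells, was at 402 CPM in P2X1-KO and 160 CPM in WT. Sqstm1, encoding the autophagy receptor p62 that binds KEAP1, was at 297 CPM in P2X1-KO and 147 CPM in WT. The interval of Sqstm1 reached below 2-fold (1.91 to 2.14), and with total counts as the scale it was within 2-fold, at a log2 difference of 0.84. Btrc and Mafk were 1.94-fold and 1.61-fold lower. Sqstm1 overlaps Mrnip and Mafk overlaps Tmem184a, each on the opposite strand.

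For glutathione turnover and transport, 2 of 14 measured genes were higher by at least 2-fold and 1 was lower by as much. Dpep2 and Dpep3, dipeptidase genes, were 13.5-fold (11.9 to 15.3) and 7.54-fold higher (5.81 to 9.91), and Dpep2 overlaps Dus2 on the opposite strand. Ggt5, a gamma-glutamyltransferase, was 2.79-fold lower (2.18 to 3.61) and the peptidase gene Lap3 1.76-fold lower. Of 5 membrane enzymes of the MAPEG family, 2 were at least 2-fold higher. Alox5ap, the partner of 5-lipoxygenase, was at 791 CPM in P2X1-KO and 149 CPM in WT. Mgst1, microsomal glutathione transferase 1, was at 101 CPM in P2X1-KO and 45.3 CPM in WT. Mgst1 was within 2-fold with total counts and after the length and GC correction, at log2 differences of 0.97 and 0.98. Mgst2 was 1.23-fold lower (1.02 to 1.49).

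NADPH, which recharges both systems, is supplied by enzymes of which 1 of 10 measured was higher by at least 2-fold and 2 lower by as much. G6pdx, the first enzyme of the pentose phosphate pathway, was at 479 CPM in P2X1-KO and 176 CPM in WT, 2.73-fold higher (2.60 to 2.86), and overlaps Ikbkg. Pgd, further along the same pathway, was 1.93-fold higher (1.78 to 2.09). Aldh1l1, a folate enzyme, had 4 counts in P2X1-KO and 178 in WT, 25.4-fold lower (9.73 to 94.1). Nadk2, the mitochondrial NAD kinase, was 2.92-fold lower (2.39 to 3.60).

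Of 17 thioredoxin-related and methionine sulfoxide repair genes, 2 were higher by at least 2-fold and 1 was lower by as much. Msrb1, a selenoprotein that repairs oxidised methionine, was at 657 CPM in P2X1-KO and 274 CPM in WT, and Txndc12 at 73.4 CPM in P2X1-KO and 35.7 CPM in WT. Both were within 2-fold after the length and GC correction, at log2 differences of 0.75 and 0.88. Msrb2, the mitochondrial repair enzyme, was 2.34-fold lower (1.83 to 3.03) and Txndc11 1.38-fold lower. Among 8 genes for making selenoproteins, 0 were higher by 2-fold and 1 was lower by at least that much. Sepsecs had 38 counts in P2X1-KO and 152 in WT, and was within 2-fold after the correction, at a log2 difference of -0.81. Sephs2 was at 125 CPM in P2X1-KO and 172 CPM in WT, and Trnau1ap was 1.65-fold higher (1.45 to 1.87).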

How the data were processed

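RNA from sorted leukaemia cells was sequenced in 1 library labelled P2X1-KO and 1 labelled WT. The deposited values are raw read counts for each gene symbol. The submitters' processing notes name HISAT2 2.0.4 and the build mm10. For the counting step, the annotation and the strand setting the sources used here give nothing. The 27 entries with calendar dates in place of symbols stayed in the totals. Counts were scaled by TMM in edgeR 4.0.16 (R 4.3.3), giving effective sizes of 8882591 for P2X1-KO and 15591519 for WT. Folds are CPM ratios with exact 95% Clopper-Pearson intervals (scipy 1.17.1), tested on simulated data; log2 differences use a pseudocount of 0.5 CPM, which understates differences of low genes. Intervals and floors of 3 counts (0.338 CPM in P2X1-KO, 0.192 CPM in WT) cover counting error only. Reads without molecular identifiers are not independent molecules. A gene was called at 2-fold or more with a mean of at least 5 CPM. Gene positions, exon lengths and base composition are those of GENCODE M21, built on mm10 like the deposited counts, and promoters from RefSeq GRCm38.p6. The correction used 20 bins of exon length, then of GC content. All members with a mean of at least 5 CPM are named, lower ones from 10 counts, and up to 2 genes per direction from each partner list by the interval bound furthest from no change. The members and lists were chosen with earlier results of these data known.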

Additional observations from a re-analysis of the deposited data

How the results depend on the processing

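With TMM, 7 enzymes were at least 2-fold higher in P2X1-KO and 2 lower, and the median log2 difference was 0.15. DESeq2 1.42.0 median-of-ratios size factors, upper-quartile scaling and pseudocounts of 0.1 and 2 CPM left the higher and lower counts within 1.5 times these where they bear on them, and the median within 0.1. The median was -0.029, of opposite sign, with total counts, 0.012 with total counts after the 20 most abundant genes were left out, and 0.26 after the length and GC correction. Total counts shift the log2 difference of every gene by -0.18, so that change of sign was not one relative to other genes. Lower enzymes numbered 4 after that correction, 7 with no minimum level, 1 at a mean of at least 20 CPM, and 1 without overlapping genes and copies of Gst clusters. At 1.5-fold, 12 were higher and 7 lower. Whole-table shares are given only for TMM without the correction, at means of at least 5 and 1 CPM. Counts under the other settings therefore have no background beside them. Of the 78 measured genes of the 7 related lists, 8 were at least 2-fold higher with total counts and 8 with the 20 most abundant genes also left out, against 13; these settings were added after seeing the data. Of the 37 enzymes, 8 changed sign under some scaling or the correction, namely Cat, Glrx5, Sod1, Prdx6, Gclm, Txn2, Glrx3 and Sod2, and none of them was 2-fold apart. Among calls, Gstt3 was lost with total counts and Gpx1 after the correction. Prdx4 became 2-fold lower with total counts, with or without the 20 most abundant genes, and, with Gstm5, after the correction. Gstp1 became 2-fold higher with upper-quartile scaling, and Gstm2-ps1 reached the minimum level, and was higher, with the 20 most abundant genes left out. The cause of these changes beyond the scaling itself was not tested. No paired analysis was possible because each group has 1 library, and no library could be left out for the same reason. The floor of 3 counts, a one-sided 95% limit for a count of 0, is 0.338 CPM in P2X1-KO.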
